A study of Mus musculus with 36 samples.

Results

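The ligands and nuclear effectors of the Notch pathway were followed through chromatin immunoprecipitation sequencing (ChIP-seq) of 3 histone marks in mouse hippocampal tissue and hippocampal neurospheres, with and without the chromatin-binding zinc finger of KDM2B. The set held 10 genes of the 21938 protein-coding genes of the annotation and was chosen by name: the effectors Hes1, Hes5, Hey1, Hey2 and Heyl, and the ligands Dll1, Dll3, Dll4, Jag1 and Jag2. Tissue was hippocampus at postnatal day 0 (P0), and neurospheres were floating cultures of neural progenitor cells taken from P0 hippocampi and grown over several generations. Control (Ctrl) mice were labelled Kdm2bfl/+ or Kdm2bfl/fl, so the controls also carried at least 1 floxed allele. In conditional knockout (cKO) mice, labelled Kdm2bEmx1-delta-CxxC, Emx1-Cre removed the exon that encodes the CxxC zinc finger, the domain with which KDM2B binds CpG-rich DNA without methylation. Emx1-Cre is active in the dorsal telencephalic lineage, so cells of other origin in the dissected tissue keep the floxed allele. Each mark, source and genotype had 2 libraries, which made 24 libraries with values among the 36 samples, and the other 12 were inputs that are not analysed here.

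Notch is a receptor that is cleaved when a ligand on a neighbouring cell binds it, and the freed intracellular part joins the DNA-binding protein RBPJ to switch on Hes and Hey genes. Hes and Hey proteins are transcriptional repressors that hold back proneural genes, and in the developing brain they keep progenitors from becoming neurons too early. H2AK119ub1 is a ubiquitin on histone H2A placed by Polycomb repressive complex 1 (PRC1), which KDM2B brings to CpG islands. H3K27me3 is a methylation of histone H3 placed by PRC2, and both are associated with silent genes. H3K36me2, a methylation of histone H3, is removed by the demethylase domain of the long form of KDM2B.

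What was measured were islands, which are stretches where a library had more reads than its input, each with its count of reads. For every gene the share of its promoter covered by islands (within 2 kb of the annotated start), the share of its body covered, the width of the islands and their counts per kb were taken in each library. Islands had been called in each library on its own, and a position outside them has no count, so 0% means that no island was called there and not that the mark was absent. Counts inside islands ranged from 987329 to 22021439 per library, and the covered length differed most among the hippocampal H2AK119ub1 libraries, from 37.3 to 247 Mb. In that tissue the libraries of replicate 1 were narrow in both genotypes and those of replicate 2 broad, and at none of the 10 promoters was hippocampal H2AK119ub1 coverage higher in replicate 1 than in replicate 2 of the same genotype. All sources were bulk chromatin, in which a smaller share of cells with a mark and a weaker mark in each cell cannot be told apart. The labelled tissue was checked on marker promoters, which in bulk chromatin do not show which cells carry a mark. H3K27me3 islands were in all 4 hippocampal libraries at 1 of 7 progenitor markers (Pax6), 1 of 6 neuronal markers (Neurod2), 4 of 5 markers of the interneuron lineage (Gad2, Dlx1, Dlx2 and Dlx5), 2 of 5 endothelial markers (Kdr and Cldn5) and 0 of 4 microglial markers, and in none of them at 3, 3, 1, 2 and 2. In neurospheres they were in all 4 libraries at 0, 1, 4, 1 and 2 markers of these lists and in none at 5, 1, 1, 2 and 1. Of all protein-coding promoters, 8.36% had an H3K27me3 island in all 4 hippocampal libraries and 69.3% in none. In neurospheres these shares were 15.5% and 59.8%.

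The promoters of the set were rich in CpG. With a GC content of at least 50% and an observed-to-expected CpG ratio of at least 0.6 in the 1 kb around the start taken as CpG-rich, 8 of the 10 qualified and 44.3% of all protein-coding promoters did. Heyl and Dll3 were the exceptions, with ratios of 0.54 and 0.45. Promoter bases from RefSeq (assembly GRCm38.p6, the same build as mm10) were matched for 7 members, while Hes1, Hey1 and Heyl had no entry. The 4 stretches below end at the last base before the annotated start and are read 5′ to 3′ in the direction of transcription, with each CpG in capitals, because CpG density is what the CxxC finger reads. They are those of 4 members picked as examples of unlike Polycomb marks, without a measure that ranked them: Hes5 (chr4:154960673-154960922, plus strand, 32 CpG) carried mainly H2AK119ub1, Hey2 (chr10:30842802-30843033, minus strand, 21 CpG) had more H3K27me3 coverage in neurospheres than in tissue, Dll4 (chr2:119325534-119325783, plus strand, 14 CpG) held the widest H3K27me3 islands, and Jag1 (chr2:137116645-137116770, minus strand, 14 CpG) had Polycomb islands at its promoter in tissue only.
Hes5: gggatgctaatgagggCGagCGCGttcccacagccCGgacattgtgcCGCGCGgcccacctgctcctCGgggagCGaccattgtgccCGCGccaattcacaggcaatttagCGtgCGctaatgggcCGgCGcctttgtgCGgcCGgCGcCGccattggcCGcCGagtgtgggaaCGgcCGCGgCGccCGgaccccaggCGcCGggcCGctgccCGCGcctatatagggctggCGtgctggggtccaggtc
Hey2: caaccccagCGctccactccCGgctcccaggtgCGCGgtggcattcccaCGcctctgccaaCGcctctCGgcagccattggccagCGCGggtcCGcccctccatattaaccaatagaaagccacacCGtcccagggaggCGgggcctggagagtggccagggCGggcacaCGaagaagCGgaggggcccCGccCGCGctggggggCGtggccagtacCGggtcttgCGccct
Dll4: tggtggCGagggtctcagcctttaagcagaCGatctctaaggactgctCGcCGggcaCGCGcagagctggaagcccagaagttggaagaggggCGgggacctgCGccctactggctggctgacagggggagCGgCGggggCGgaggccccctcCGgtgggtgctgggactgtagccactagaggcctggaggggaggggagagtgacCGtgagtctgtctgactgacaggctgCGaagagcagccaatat
Jag1: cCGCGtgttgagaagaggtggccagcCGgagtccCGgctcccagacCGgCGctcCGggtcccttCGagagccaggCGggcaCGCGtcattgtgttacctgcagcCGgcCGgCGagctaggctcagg
The median promoter of the RefSeq table had 6 CpG in the 250 bases before its start. Hes5 had 32 there, a number reached by 4.58% of promoters, and Jag2 had 54, reached by 0.0152%. Dll4 had 14, which 29.4% of promoters reached, and Jag1 had 20, which 17.9% reached. The printed stretches are 250 bases long for Hes5 and Dll4, 232 for Hey2 and 126 for Jag1. The CpG counts given with them are therefore not over equal lengths.

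Short motifs were searched on both strands of those 250 bases. TGGGAA, the core of an RBPJ site, was found in Hes5 at 226 to 221 and at 82 to 77 bases before the RefSeq start, and in Hey2 at 207 to 202 bases, and in 21.6% of the 32851 promoters of the table. CACGCG, a sequence that Hes proteins can bind, was found in Dll1, Dll4 and Jag1 and in 7.62% of all promoters. CACGTG, an E-box that Hey proteins can bind, was found in none of the 7 and in 6.02% of all. These matches describe letters in a window and not binding.

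Across the set, H2AK119ub1 was the mark found most often and H3K36me2 the least often. In hippocampus 9 of the 10 promoters had an H2AK119ub1 island in some library and in neurospheres 9 did, where 71.5% and 51.8% of all protein-coding promoters had none. H3K27me3 was found at 6 promoters in each source, where 69.3% of all promoters in hippocampus and 59.8% in neurospheres had none. The sources shared 5 of them (Hes1, Hes5, Hey2, Heyl and Dll4), while Jag1 was covered in hippocampus only and Jag2 in neurospheres only. Hey1, Dll1 and Dll3 had no H3K27me3 island at the promoter in any of the 8 libraries, and Heyl had one in all 8. Of all promoters, 8.36% had one in all 4 hippocampal libraries and 15.5% in all 4 neurosphere libraries. H3K36me2 reached 1 member in hippocampus and 7 in neurospheres, where 87.4% and 50.8% of all promoters had none. Ranked by the median covered share over the 8 libraries of H3K27me3, Dll4 (100%) and Heyl (93.9%) stood above Hey2 (55.0%) and Hes1 (25.4%), and the other 6 members had a median of 0%. For H2AK119ub1 the order was Hes5 and Dll4 (100%), Hes1 (45.2%), Heyl (39.4%), Hey2 (32.5%), Jag2 (23.1%) and Dll1 (14.1%), with Hey1, Dll3 and Jag1 at 0%. Every one of these ranges began at 0% except that of Heyl for H3K27me3 (45 to 100%), so neighbours in either order did not differ beyond their spread.

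**Figure D1:**
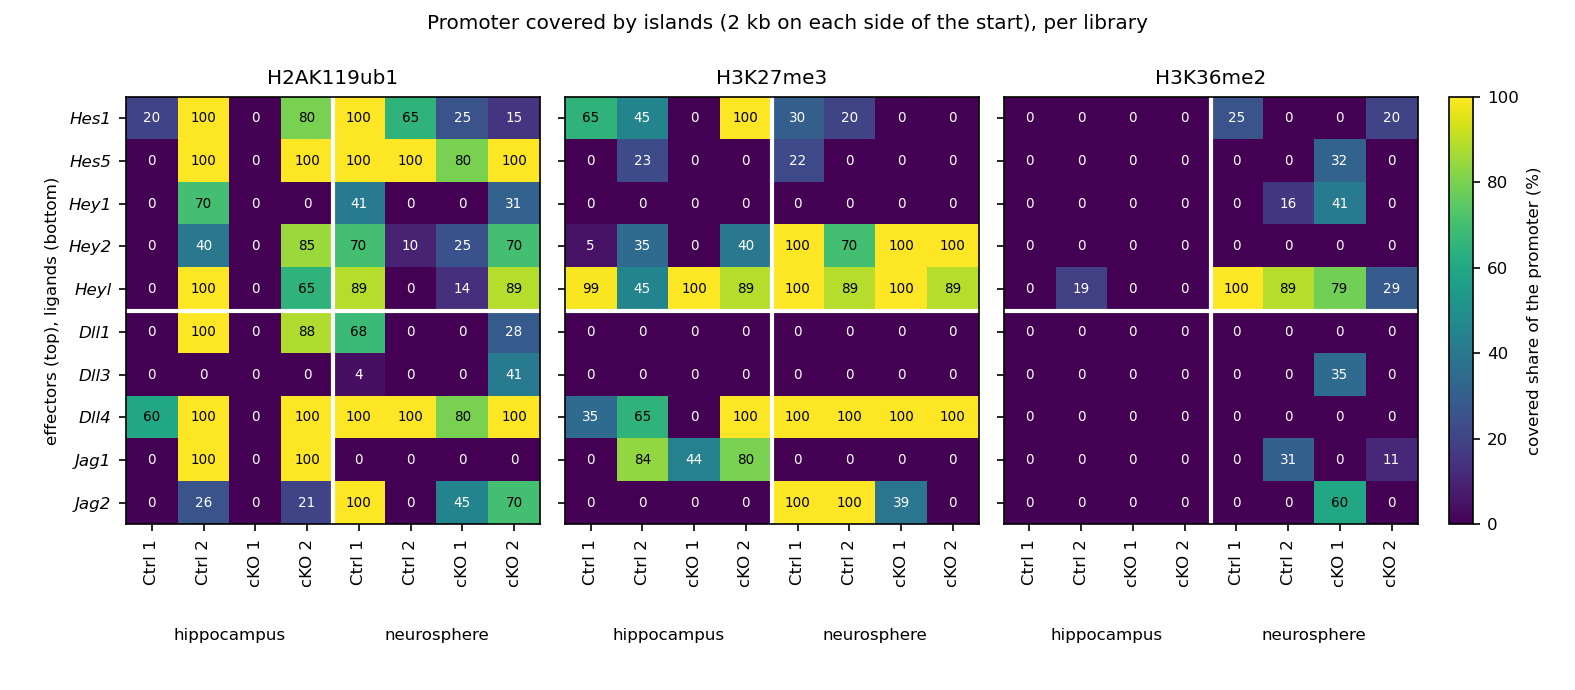
Covered share of the promoter (%, colour and printed value) for the 10 genes (rows) in the 24 libraries (columns), with 1 panel per mark; the vertical line parts hippocampus from neurospheres and the horizontal line effectors from ligands. Dll4, Hey2 and Heyl are covered by H3K27me3 in all 4 neurosphere libraries, and H3K36me2 is nearly absent in hippocampus.

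The number of members covered by H2AK119ub1 moved with the length called in a library. In hippocampus the Ctrl libraries covered 45.7 and 157 Mb and held islands at 2 and 9 members (6.08 and 17.1% of all promoters), and the cKO libraries covered 37.3 and 247 Mb and held them at 0 and 8 (3.94 and 24.3%). In neurospheres the Ctrl libraries covered 327 and 127 Mb and reached 9 and 4 members (36.9 and 15.3% of all promoters), while the cKO libraries covered 174 and 314 Mb and reached 6 and 9 (23.6 and 33.0%). In both sources the broader library of each genotype thus reached more members than the narrower one, and its part in the differences between genotypes was not tested. The H3K27me3 libraries of neurospheres were closer in length, from 268 to 321 Mb, and reached 6 and 5 members in Ctrl against 5 and 3 in cKO, beside 28.4 and 29.3% of all promoters in Ctrl and 28.6 and 24.2% in cKO.

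**Figure D2:**
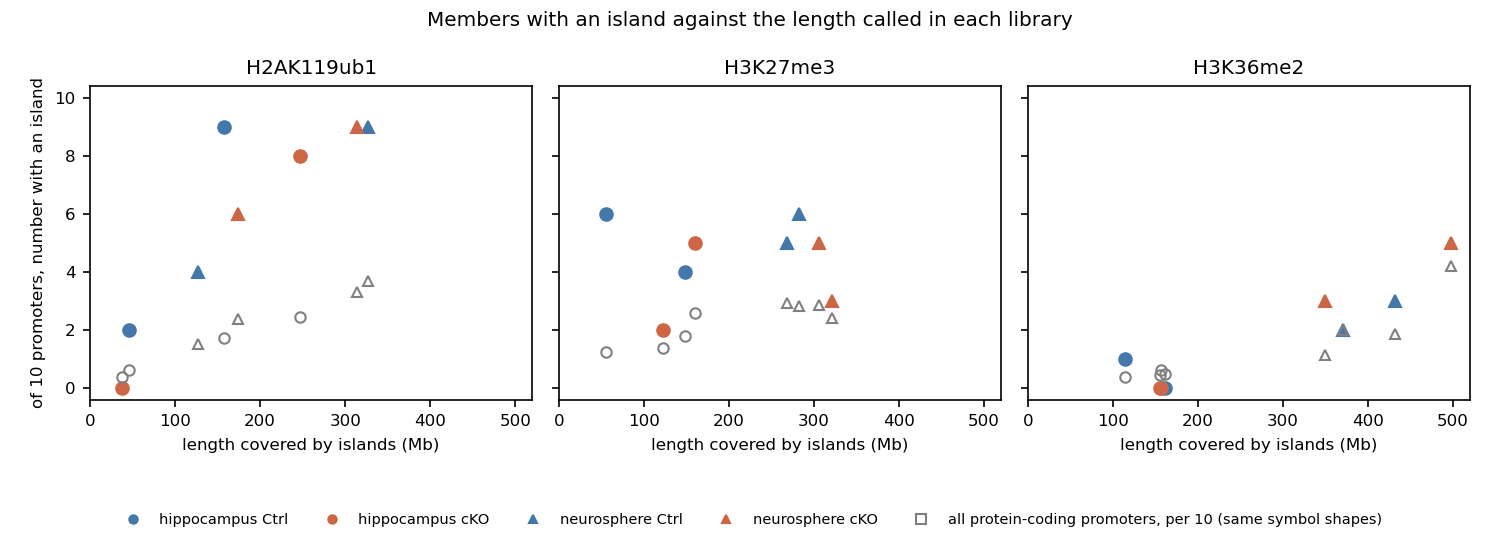
Number of the 10 promoters with an island (filled symbols) against the length covered by islands in the library (Mb), by mark, with circles for hippocampus, triangles for neurospheres, blue for Ctrl and orange for cKO; open grey symbols give all protein-coding promoters per 10. For H2AK119ub1, libraries above 150 Mb reach 6 to 9 members and those below reach 0 to 4.

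Loss of the CxxC finger was compared first at the effectors in neurospheres, where Hes1 had lower Polycomb coverage in cKO. Hes1 (chr16:30064384-30067796, plus strand) is the most broadly used Notch effector of neural progenitors. Its H2AK119ub1 promoter coverage was 100 and 65% in Ctrl against 25.4 and 15.4% in the cKO libraries. The groups did not overlap, with means of 82.5 ± 24.7% and 20.4 ± 7.07% (SD, n = 2 each). In the Ctrl libraries islands also covered 100 and 87.8% of the gene body, and in both cKO libraries the body had none. The island of Ctrl replicate 1 ran across the start, those of Ctrl replicate 2 lay on both sides of it, and those of both cKO libraries lay upstream only. Among all protein-coding promoters, 3.75% were lower in cKO without overlap, against 1 of 10 here, and none of the 10 was higher. That share, like the later ones for groups without overlap, includes promoters or bodies without an island in any library, which cannot separate. Here they were 51.8% of all promoters and 1 of the 10 members. With 2 libraries against 2 the smallest possible p of the exact permutation test is 0.333, which is the value for Hes1, so this design cannot reach 0.05 for a single promoter.

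H3K27me3 at the Hes1 promoter in neurospheres was 30.4 and 20.4% in Ctrl against 0.425 and 0% in cKO, again without overlap. These islands lay upstream, none touched the gene body, and with a promoter of 1 kb on each side, or with the start shared by most transcripts, the groups overlapped. In hippocampus the same promoter was covered by H3K27me3 over 65 and 45% in Ctrl against 0 and 100% in cKO, which spans the whole scale within 1 genotype. Hippocampal H2AK119ub1 at Hes1 was 20 and 100% in Ctrl against 0 and 80% in cKO, so the groups overlapped there as well. The genotypes were thus separated in neurospheres and not in tissue, while the interaction of genotype and source in the counts was -0.46 on the log2 scale (SE 0.73, edgeR adjusted p = 0.998). Over both sources together the exact permutation p for H2AK119ub1 was 0.222 (36 splits within source, smallest possible 0.0556).

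Counts gave a weaker picture for Hes1 than coverage. The merged H2AK119ub1 region around its promoter was 82.6 kb long and held 4367 and 2256 counts in Ctrl against 1453 and 2487 in the cKO libraries. The quasi-likelihood test of edgeR gave a log2 fold change of -0.33 (SE 0.43, adjusted p = 1.00), a difference smaller than its error. A region of that length reaches far beyond the gene, and it was joined from every island that any library placed there.

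Hes5 (chr4:154960923-154962371, plus strand), the effector most closely tied to the neural progenitor state, had H2AK119ub1 in all 4 neurosphere libraries, as did 6.72% of all promoters. Coverage of its promoter in neurospheres was 100 and 100% in Ctrl against 80 and 100% in cKO, and in hippocampus it was 0 and 100% in Ctrl against 0 and 100% in cKO. The widest island at the promoter was 143 and 25.6 kb in the Ctrl neurospheres against 3.6 and 15.8 kb in the cKO neurospheres. Islands were thus narrower in both cKO libraries, but the counts of the merged 203-kb region differed little, with a log2 fold change of 0.19 (SE 0.33, adjusted p = 1.00). H3K27me3 covered part of the promoter in 2 of the 8 libraries, 23.1% in hippocampus Ctrl replicate 2 and 21.9% in neurosphere Ctrl replicate 1. In neurospheres the merged H3K27me3 region, which is 81 kb long, lies upstream and reaches only the outer edge of the promoter, held 5996, 4613, 3930 and 2923 counts in Ctrl replicates 1 and 2 and cKO replicates 1 and 2, a log2 fold change of -0.61 (SE 0.23, edgeR adjusted p = 0.261).

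Hey2 (chr10:30832359-30842801, minus strand), an effector best known in heart and vessels that is also used by neural and glial progenitors, was the member whose H3K27me3 was more extensive in cKO neurospheres. Islands at its promoter were 6.8 and 2.8 kb wide in Ctrl against 10.2 and 31.6 kb in cKO. They covered 47.9 and 7.67% of the gene body in Ctrl against 57.9 and 86.2% in cKO, so body coverage was higher in cKO without overlap, which held for 6.51% of all gene bodies. Promoter coverage was close to its ceiling, at 100 and 70% in Ctrl against 100% in both cKO libraries, and cannot show more. In the merged region of 43.8 kb the counts were 795 and 389 in Ctrl against 1108 and 1847 in cKO, both cKO libraries above both Ctrl libraries. The log2 fold change was 1.36 (SE 0.34), and its adjusted p of 0.193 in edgeR missed the threshold, while DESeq2 gave an adjusted p of 0.0187. Without cKO replicate 2, the library with the 31.6-kb island, the log2 fold change was 0.48 (edgeR adjusted p = 0.361). H2AK119ub1 at Hey2 did not share that direction: promoter coverage was 70 and 9.97% in Ctrl against 25 and 70% in cKO, and body coverage was 23.0 and 24.9% in Ctrl against 0 and 7.67% in cKO. Hes1 and Hey2 were thus the members with lower H2AK119ub1 over the body without overlap, as were 4.23% of all gene bodies.

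Heyl (chr4:123233556-123249875, plus strand), another Hey effector, whose promoter was not CpG-rich, was the only member with H3K27me3 in all 8 libraries. Promoter coverage in neurospheres was 100 and 88.9% in Ctrl against 100 and 88.9% in cKO. Its gene body was covered over 86.1 and 91.0% in Ctrl against 65.2 and 33.4% in cKO, lower in cKO without overlap, as in 5.78% of all gene bodies. The islands were 15.6 and 16.4 kb wide in Ctrl against 11.4 and 7.0 kb in cKO, and the counts of the merged region gave a log2 fold change of -0.91 (SE 0.51, edgeR adjusted p = 0.381). In hippocampus the values were 98.9 and 45% in Ctrl against 100 and 88.9% in cKO at the promoter, which overlap. H2AK119ub1 at Heyl was higher in the broader library of each genotype, with 88.9 and 0% in the Ctrl against 13.9 and 88.9% in the cKO neurospheres.

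H3K36me2 was found at Heyl in every neurosphere library, which no other member showed and which held for 4.85% of all promoters. Promoter coverage was 100 and 88.9% in Ctrl against 78.9 and 28.9% in cKO, lower in cKO without overlap, as at 2.76% of all promoters. Body coverage was 100 and 100% in Ctrl against 95.1 and 65.0% in cKO, also without overlap, as in 4.33% of all bodies. The islands were 25.8 and 23.0 kb wide in Ctrl against 9.6 and 3.8 kb in cKO. The counts of the 31-kb region were 1937 and 1565 in Ctrl against 1511 and 554 in cKO, with a log2 fold change of -0.44 (SE 0.51, edgeR adjusted p = 0.962). The 4 libraries differed in the length called, which was 371 and 432 Mb in Ctrl against 497 and 349 Mb in cKO, and with a promoter of 1 kb on each side the groups overlapped.

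Hey1 (chr3:8663359-8667256, minus strand), the remaining Hey effector, had the weakest Polycomb signal of the effectors. H2AK119ub1 covered its promoter over 70% in hippocampus Ctrl replicate 2 and over 41.4 and 31.4% in neurosphere Ctrl replicate 1 and cKO replicate 2. These were broad libraries, but hippocampus cKO replicate 2, the broadest hippocampal library of that mark (247 Mb), had 0%. Elsewhere it was also 0% at that promoter. No library placed an H3K27me3 island there. In neurospheres H3K36me2 covered 16.4% in Ctrl replicate 2 and 41.4% in cKO replicate 1.

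Among the ligands, Jag2 had the largest difference between genotypes in H3K27me3. Jag2 (chr12:112907819-112929776, minus strand) is a Serrate-type ligand. Its promoter in neurospheres was covered over 100 and 100% in Ctrl against over 39.4 and 0% in the cKO libraries, without overlap and with means of 100 ± 0% and 19.7 ± 27.9% (SD, n = 2 each). Islands of 36.8 and 39.6 kb in Ctrl covered the whole gene body, where both cKO libraries had no island, and the remaining cKO island was 4.8 kb wide and lay upstream. Counts in the 40.2-kb region were 2847 and 2259 in Ctrl, 162 in cKO replicate 1 and none called in cKO replicate 2, and since the region lacked an island in a library it was not tested. The difference of cKO minus Ctrl, -80.3 percentage points, has the smallest p that 2 against 2 allows, 0.333 in the exact permutation test. Lower H3K27me3 coverage without overlap was seen at 5.33% of all promoters and here at Hes1 and Jag2. In hippocampus no library had an H3K27me3 island at the Jag2 promoter. H2AK119ub1 at Jag2 in neurospheres did not show the same order, with 100 and 0% in Ctrl against 45 and 70% in cKO, and H3K36me2 covered 60% of the promoter and 93.7% of the body in cKO replicate 1 alone.

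**Figure D3:**
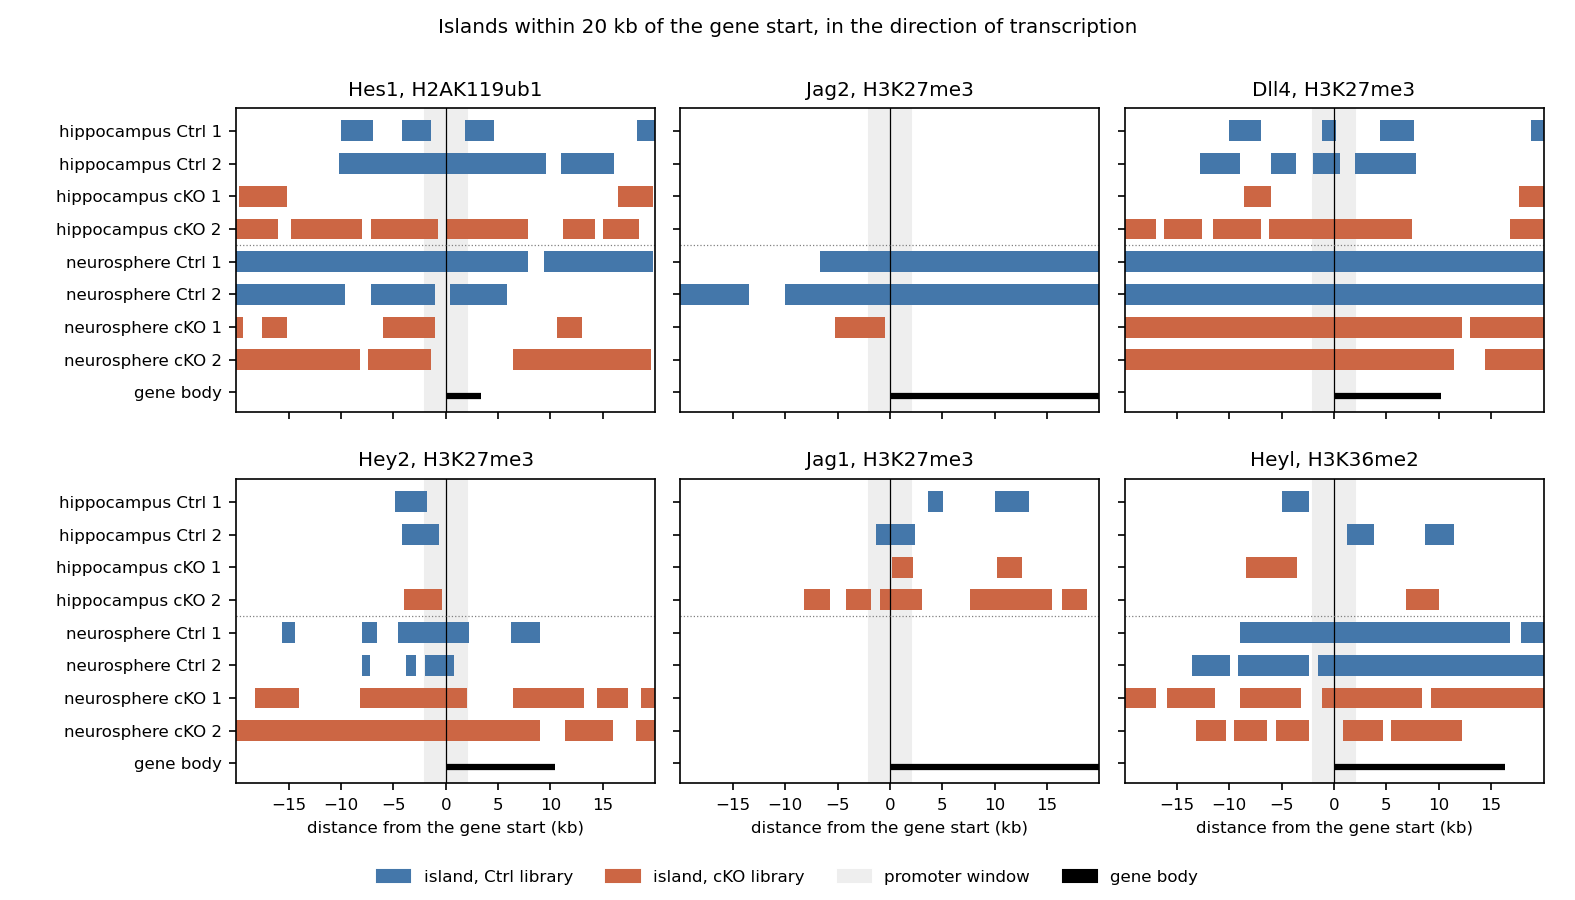
Islands within 20 kb of the gene start in the 8 libraries of the mark named above each panel, with distance in kb in the direction of transcription; blue bars are islands of Ctrl libraries, orange bars those of cKO libraries, the grey band is the promoter window and the black bar the gene body. At Jag2 the islands across the gene are in the 2 neurosphere Ctrl libraries only, at Dll4 all 4 neurosphere libraries are covered across the start, and at Hey2 the widest island, 31.6 kb, is in neurosphere cKO replicate 2.

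Dll4 (chr2:119325784-119335962, plus strand), a Delta ligand known mainly from blood vessels, carried the broadest H3K27me3 islands of the set. In neurospheres H3K27me3 covered its whole promoter and body in all 4 libraries. Islands there were 67.6 and 56.8 kb wide in Ctrl against 38.2 and 33.8 kb in cKO, wider than 96.9 to 99.7% of the islands of the same library. They held 94.1 and 85.3 counts per kb in Ctrl against 78.4 and 69.2 in cKO, but all islands of the library together held 60.2 and 52.3 in Ctrl against 43.2 and 42.0 in cKO. Relative to that density the islands at Dll4 stood at 1.56 and 1.63 times in Ctrl against 1.81 and 1.65 times in cKO, so they were narrower in both cKO libraries and not less dense for their library. The counts of the region (6358, 5104, 3889 and 2933) gave a log2 fold change of -0.73 (SE 0.23, edgeR unadjusted p = 0.0219, adjusted p = 0.224). Among the 11262 regions tested for this comparison 18.4% had an unadjusted p under 0.05. H2AK119ub1 covered the promoter over 100 and 100% in Ctrl against 80 and 100% in cKO neurospheres, and the counts of its region differed by less than their error (log2 fold change 0.00, SE 0.40, edgeR adjusted p = 1.00). In hippocampus H3K27me3 coverage was 35 and 65% in Ctrl against 0 and 100% in cKO, on islands of at most 13.6 kb.

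Jag1 (chr2:137081456-137116644, minus strand), a Serrate-type ligand of neural progenitors and vessels, had Polycomb marks at its promoter in tissue only. H3K27me3 covered it over 0 and 83.9% in the hippocampal Ctrl libraries against over 43.9 and 80% in the cKO libraries, and over 0% in all 4 neurosphere libraries. H2AK119ub1 likewise covered 100% in both hippocampal replicate 2 libraries and 0% in all 4 neurosphere libraries, although islands lay on 42.6 to 69.3% of its body in neurospheres. Genotypes overlapped for both marks.

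Dll1 (chr17:15367354-15376872, minus strand) is the Delta ligand of committing neural precursors and Dll3 (chr7:28293553-28302238, minus strand) a divergent Delta protein that acts within the cell. Neither had H3K27me3 at the promoter in any library. Dll1 had H2AK119ub1 over 100 and 88.2% in the hippocampal replicate 2 libraries and over 68.2 and 28.2% in neurosphere Ctrl replicate 1 and cKO replicate 2, which are the broad libraries of each pair. Dll3 had none in hippocampus, and 4.05 and 41.0% in the same pair of neurosphere libraries.

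**Figure D4:**
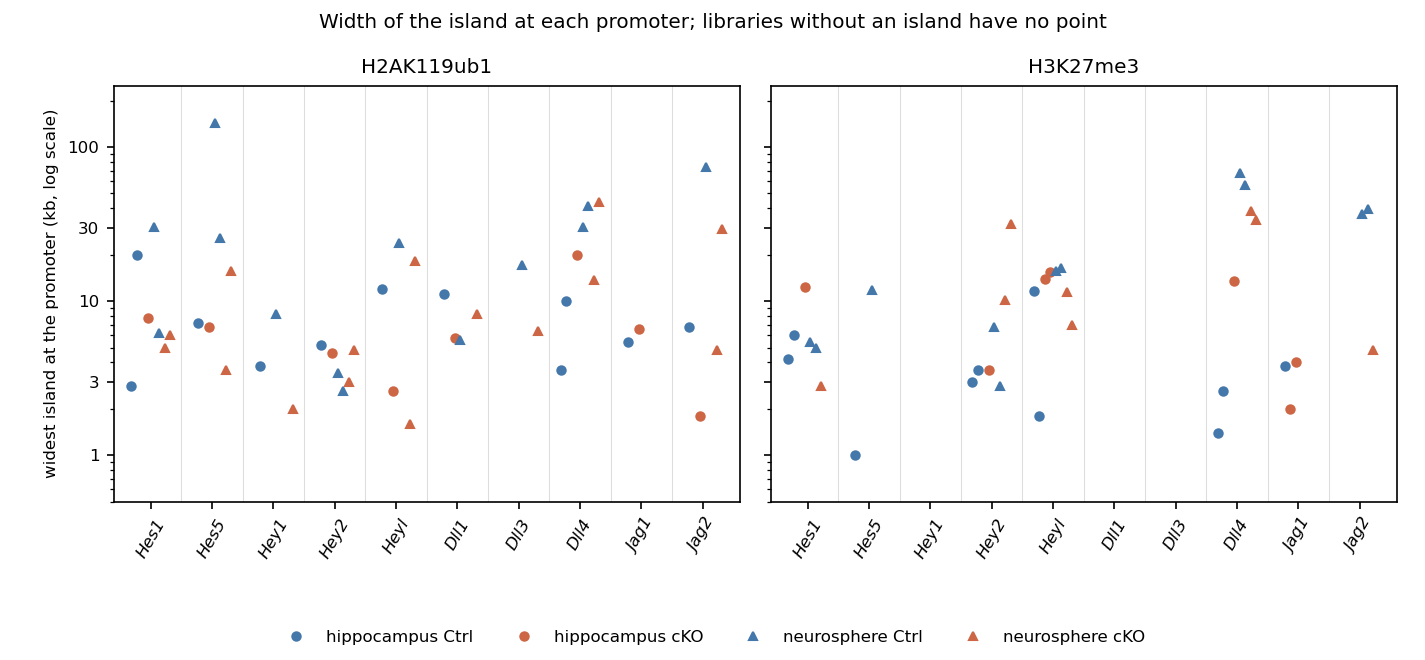
Width of the widest island at each promoter (kb, log scale) in each library, with H2AK119ub1 on the left and H3K27me3 on the right; circles are hippocampus, triangles neurospheres, blue Ctrl and orange cKO, and libraries without an island have no point. For H3K27me3 in neurospheres the cKO islands lie below the Ctrl islands at Dll4 and Heyl and above them at Hey2.

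Taking the set over the 6 comparisons of genotype, no member differed without overlap in hippocampus in any of the 3 marks, where 0.579% (higher) and 0.483% (lower) of all promoters did for H2AK119ub1, 3.62% and 0.793% for H3K27me3 and 0.948% and 0.524% for H3K36me2. In neurospheres 1 member was lower for H2AK119ub1, 2 for H3K27me3 and 1 for H3K36me2, and none was higher, where 2.13%, 3.43% and 2.08% of all promoters were higher. Over gene bodies no member differed without overlap in hippocampus, where 1.86% (higher) and 0.629% (lower) of all bodies did for H2AK119ub1, 6.76% and 0.948% for H3K27me3 and 5.62% and 2.29% for H3K36me2, and in neurospheres none was higher for H2AK119ub1 or H3K36me2 (4.82% and 4.62% of all). The median difference of cKO minus Ctrl over the 10 members was -4.2 percentage points for H2AK119ub1 in hippocampus. There 6 members were lower and 1 higher, while 11.04% of all promoters were lower and 16.1% higher. For H2AK119ub1 in neurospheres the median was -2.5 percentage points. There 5 members were lower and 4 higher, while 24.59% of all promoters were lower and 20.42% higher. The member median was 0 in the other 4 comparisons, and the median over all promoters was 0 in each case. In the count test no region of the genome passed the 5% false discovery rate (FDR) in any of the 6 (0% called by edgeR), while unadjusted p-values were under 0.05 for 30 of 2750 (1.09%), 155 of 4387 (3.53%) and 318 of 6447 (4.93%) regions in hippocampus for H2AK119ub1, H3K27me3 and H3K36me2, and for 101 of 6060 (1.67%), 2077 of 11262 (18.4%) and 736 of 34454 (2.14%) in neurospheres. DESeq2 called 0, 3 and 20 regions in hippocampus and 32, 738 and 83 in neurospheres. Of the members, 5 had a testable region for H2AK119ub1, 4 for H3K27me3 and 3 for H3K36me2 in neurospheres, and 2 for H3K27me3 in hippocampus, because a region had to hold an island in every library. For H3K27me3 in neurospheres, member fold changes kept their sign under the other settings and without each library, wherever the region could be tested. On the log2 scale they ranged from -1.23 to -0.43 at Dll4, -1.12 to -0.30 at Hes5, 0.48 to 1.66 at Hey2 and -2.05 to -0.28 at Heyl. A fit without 1 library assumes that the lone library left in its genotype varies like those of the other genotype. The separate p-values measure the spread between these libraries, since the labels do not state that they come from separate animals.

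Neurospheres and tissue were compared next, over 4 libraries each with both genotypes. Counts in the merged region at the promoter were higher in neurospheres for 3 members: Hes5 and Heyl for H2AK119ub1, Dll4 for H3K27me3 and Heyl also for H3K36me2. The sources also differ in culture and in the mixture of cells, which cannot be told apart here. For Dll4, H3K27me3 counts in the region of 67.6 kb were 373, 398, 345 and 1111 in hippocampus and 6358, 5104, 3889 and 2933 in neurospheres, so every neurosphere library lay above every hippocampal one before scaling. After scaling the log2 fold change was 1.65 (SE 0.38, edgeR adjusted p = 0.00697), and it was 1 of the 505 regions called higher among 2373 tested (21.3%, with 21.2% lower and 42.5% in all). Of 5 promoters of endothelial markers, none differed in H3K27me3 coverage between the sources without overlap, and Kdr was covered in all 8 libraries, Cldn5 in 7, Cdh5 in 3 and Pecam1 and Tek in 0. The part of such cells in the value of Dll4 was not tested.

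For H2AK119ub1, the 203-kb region at Hes5 held 154, 2029, 224 and 3298 counts in hippocampus and 15770, 4337, 5831 and 9257 in neurospheres, with a log2 fold change of 1.62 (SE 0.41, edgeR adjusted p = 0.0172). The region at Heyl, 85.4 kb long, gave 1.35 (SE 0.41, adjusted p = 0.0354), and that at Hes1 gave -0.39 (SE 0.35, adjusted p = 0.430). Higher calls made up 9.32% of the 1555 regions tested, lower calls 11.2% and both 20.5%. The regions at Hes5 and Heyl reach far beyond the promoters. Both promoters had 0% coverage in the hippocampal replicate 1 libraries, and Heyl also in neurosphere Ctrl replicate 2, so those counts lay elsewhere. Mean promoter coverage in hippocampus and neurospheres was 50 and 95% at Hes5 (exact permutation p = 0.5) and 41.25 and 47.9% at Heyl (exact permutation p = 0.778). The calls at Hes5 and Heyl were lost without some libraries, at Hes5 without hippocampus Ctrl replicate 1 (adjusted p = 0.0652), hippocampus cKO replicate 1 (0.0559) or neurosphere cKO replicate 1 (0.0562). At Heyl they were lost without any of these 3 or neurosphere Ctrl replicate 1, with adjusted p from 0.0667 to 0.107.

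H3K36me2 at Heyl separated the sources in counts and in coverage. Counts in its 31-kb region were 78, 144, 140 and 112 in hippocampus and 1937, 1565, 1511 and 554 in neurospheres, a log2 fold change of 1.82 (SE 0.40, edgeR adjusted p = 0.0242) where 5.38% of 5204 regions were called higher, 4.25% lower and 9.63% in all. Promoter coverage did not overlap either, at 0, 18.9, 0 and 0% against 100, 88.9, 78.9 and 28.9%, as at 3.18% of all promoters (0.0365% were lower), and the exact permutation p of 0.0556 is the smallest that the 36 splits allow. Leaving out hippocampus Ctrl replicate 1, hippocampus cKO replicate 2, neurosphere Ctrl replicate 2 or neurosphere cKO replicate 1 ended the count call (adjusted p from 0.0562 to 0.0808).

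Promoter coverage by H3K27me3 separated the sources at Hey2 only, with 5.03, 35, 0 and 40% in hippocampus and 100, 70, 100 and 100% in neurospheres, where 5.85% of all promoters were higher in neurospheres and 1.25% lower (exact permutation p = 0.0556). When only the densest islands up to the smallest covered length were kept in each library, the sources overlapped at Hey2 and Heyl was lower in neurospheres instead. Over gene bodies Hey2 and Dll4 were higher in neurospheres and Jag1 lower, against 10.7% and 1.61% of all bodies. For H3K36me2 Heyl was higher over the body and no member lower (16.6% and 0.538% of all), and for H2AK119ub1 no body separated the sources (5.43% higher and 0.501% lower of all). Jag2 was covered by H3K27me3 in 3 of the 4 neurosphere libraries and none of the hippocampal ones, and Jag1 in 3 hippocampal libraries and none of the neurosphere ones, so the 2 Serrate-type ligands were marked in opposite sources (exact permutation p = 0.167 for each). No promoter of the set separated the sources for H2AK119ub1, where 1.73% of all promoters were higher in neurospheres and 0.0501% lower.

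Whether the effect of the deletion differed between the sources was tested as an interaction in the count fit. No member passed, and no region did (0% of 1555, 2373 and 5204 regions in edgeR, with 22, 258 and 205, or 1.41%, 10.9% and 3.94%, at an unadjusted p under 0.05 and 0, 47 and 10 called by DESeq2). The largest member term was that of Heyl for H3K27me3, -0.97 on the log2 scale (SE 0.64, adjusted p = 0.603).

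**Figure D5:**
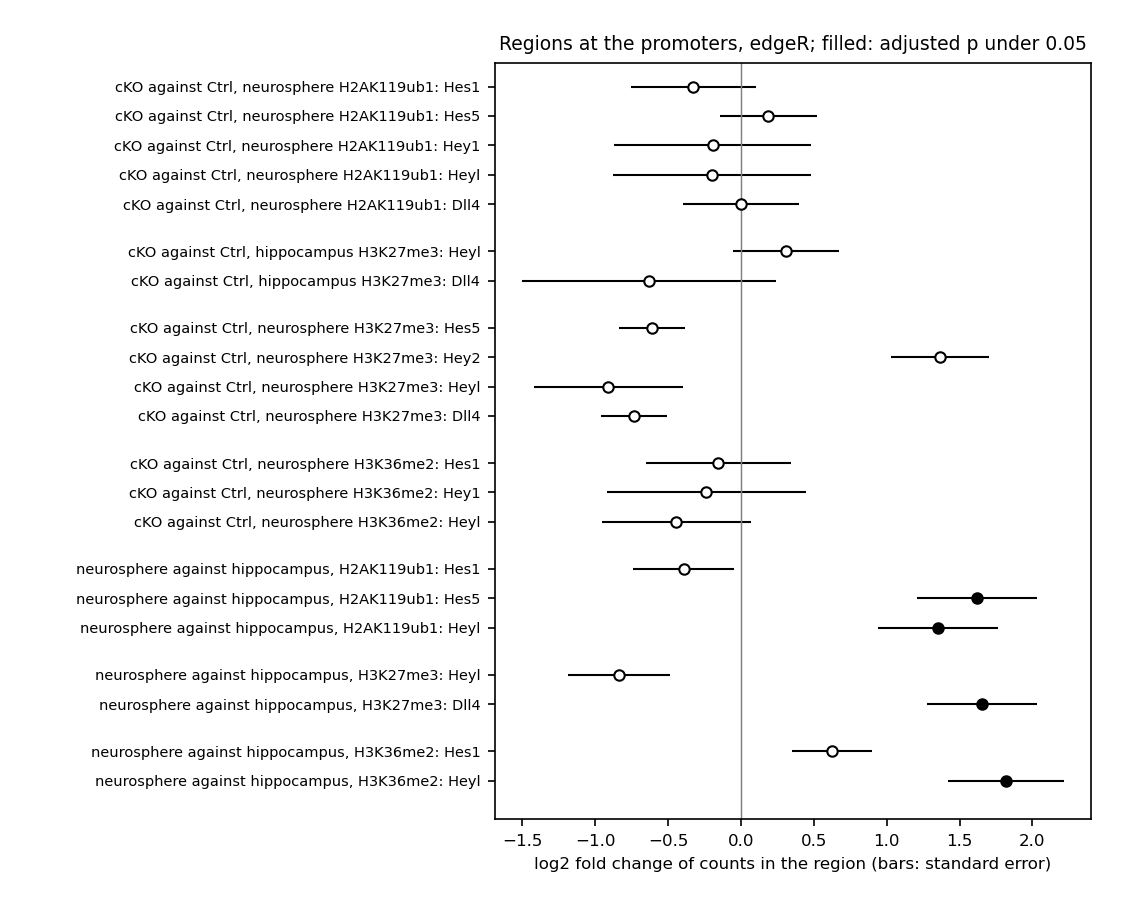
Log2 fold change (points) and standard error (bars) of the counts in the region at each member's promoter, for the comparisons in which it could be tested; filled points have an edgeR adjusted p under 0.05. The 4 filled points are all comparisons of neurospheres with hippocampus, and no comparison of cKO with Ctrl has one.

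The 2 Polycomb marks were seen together at some members and apart at others. In hippocampus Ctrl replicate 2 and neurosphere Ctrl replicate 1, 6 members had both marks and 3 had H2AK119ub1 alone, where 8.19 and 18.4% of all promoters had both and 8.95 and 18.4% had H2AK119ub1 alone. The 3 with H2AK119ub1 alone included Hey1 and Dll1 in each of these libraries. In neurosphere cKO replicate 2, 3 members had both and 6 had H2AK119ub1 alone, while 13.3% of all promoters had both and 19.7% had H2AK119ub1 alone. Over the 8 pairs of libraries with the same label, members with both ranged from 0 (hippocampus cKO replicate 1) to 6, and H3K27me3 without H2AK119ub1 was seen at 2 members each in hippocampus Ctrl replicate 1, hippocampus cKO replicate 1 and neurosphere Ctrl replicate 2 (13.9, 11.6 and 19.1% of all promoters) and at 0 in the other 5.

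The rest of the pathway gave a frame for these values, with 33 genes in 7 roles. For H3K27me3 in neurospheres 4 of the 33 had lower promoter coverage in cKO without overlap and none had higher (5.33% and 3.43% of all promoters). They were the receptors Notch3 (100 and 3.70% in Ctrl, 0 and 0% in cKO) and Notch4 (91.7 and 91.7% against 86.7 and 71.7%), the Hes-family repressor Hes3 (100 and 100% against 68.5 and 63.5%) and the non-canonical ligand Dlk2 (100 and 100% against 79.5 and 59.5%). For H2AK119ub1 there Maml3, a coactivator of the Notch complex, was lower (80 and 36.9% against 11.9 and 0%), and for H3K36me2 Nrarp, a feedback inhibitor of Notch, was lower and Numb and Neurl1a, regulators of Notch and ligand uptake, were higher. In hippocampus Neurl1a was higher for H2AK119ub1, Dlk2 for H3K27me3 and Mfng, a Fringe glycosyltransferase, for H3K36me2. Of all promoters in neurospheres, 3.75% were lower for H2AK119ub1, and 2.76% were lower and 2.08% higher for H3K36me2. In hippocampus 0.579%, 3.62% and 0.948% of all promoters were higher for H2AK119ub1, H3K27me3 and H3K36me2. Hes2, Hes3, Dlk1 and Dlk2 had H3K27me3 in all 8 libraries, Hes2 also had H2AK119ub1 in all 8 and the receptor Notch1 had H3K36me2 in all 8. Of all promoters, 8.36% had H3K27me3 in all 4 hippocampal libraries and 15.5% in all 4 neurosphere libraries. These shares were 1.59% and 6.72% for H2AK119ub1 and 0.424% and 4.85% for H3K36me2. Of the 7 genes of the proteases that cleave Notch, 5 had no H3K27me3 in hippocampus and 7 had none in neurospheres (69.3 and 59.8% of all promoters), and 7 and 6 had no H2AK119ub1 (71.5 and 51.8%).

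Between sources, Notch2, Notch4 and Maml3 had more H3K27me3 promoter coverage in neurospheres without overlap, as did 5.85% of all promoters. In counts, edgeR called H2AK119ub1 higher in neurospheres at Notch1 (log2 fold change 2.19, adjusted p = 0.0315), Notch2 (1.49, adjusted p = 0.00979) and the 275-kb region shared by Hes2 and Hes3 (1.02, adjusted p = 0.0238), and H3K27me3 lower at Neurl1a (-1.81, adjusted p = 0.00351). Of all regions tested between sources, 9.32% were called higher for H2AK119ub1 and 21.2% lower for H3K27me3. None of the 33 passed in a comparison of genotypes.

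Among proneural genes that Hes proteins repress, Neurog1 and Atoh1 carried both Polycomb marks in all 8 libraries of each mark. Of all promoters, 1.59% had H2AK119ub1 in all 4 hippocampal libraries and 6.72% in all 4 neurosphere libraries. For H3K27me3 these shares were 8.36% and 15.5%. Neurog2, which drives excitatory neurogenesis, was lower in cKO without overlap for H2AK119ub1 in hippocampus (36.7 and 26.7% against 0 and 25.0%) and in neurospheres (100 and 100% against 36.7 and 86.7%), and for H3K27me3 in neurospheres (100 and 100% against 96.7 and 80%). Its H3K27me3 coverage in hippocampus was 0 and 0% in Ctrl against 0 and 85% in cKO, which overlap. The shares of all promoters that were lower without overlap are 0.483%, 3.75% and 5.33% in the comparisons where Neurog2 was lower. Its 0% for H2AK119ub1 in hippocampus came from the narrowest library of that mark (37.3 Mb). In counts no region of a proneural gene passed the FDR in edgeR between genotypes, and Neurog2 had no testable region within hippocampus.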

How the data were processed

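ChIP-seq was analysed for H2AK119ub1, H3K27me3 and H3K36me2 in P0 hippocampus and neurospheres of Ctrl and cKO mice, 2 libraries each, grouped by the sample labels. The authors trimmed adaptors with cutadapt, aligned reads to mm10 with Bowtie2 (2.4.5), removed duplicates with samtools and called islands per library against input with SICER (version not given in the sources used here; window 200 bp, gap 600 bp, fragment 150 bp, effective genome fraction 0.77, FDR 0.01). The deposited values are raw counts of reads per island without normalisation. Counts in islands are not the sequencing depth, which is unknown here, and intervals were not computed. Islands on chromosome M (9 in 5 libraries, at most 0.0232% of counts) were left out.

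The 10 members and the gene lists were chosen with earlier results of these data known. Every member was named, and genes of the wider pathway were named where a region passed the FDR, where groups did not overlap or where all libraries had an island. Starts came from the GRCm38 annotation. Covered shares were computed per library. Islands of the libraries compared were merged into regions, and regions with an island in every library were tested with edgeR (4.0.16, quasi-likelihood, TMM, Benjamini-Hochberg, FDR 0.05, all regions), with no covariate for genotype and with genotype and source terms over both sources. TMM scaling sets the bulk of regions to no change, so a shift of a mark over the whole genome would not be seen. For single promoters an exact permutation test (two-sided) was used and, over all 21938 promoters, by whether groups overlapped. Alternatives were DESeq2 (1.42.0), its size factors in edgeR, a looser island filter, a mean of at least 50 counts, the replicate number as a block, a promoter of 1 kb on each side, another start, equal covered length, islands of at least 20 counts per kb, and leaving out each library. Gene bodies and a crossed block were added after seeing the data. The count fits were tested on simulated data with planted 4-fold changes, and the interval code on promoters with known answers. At the fitted spread few or none of the planted changes were recovered for genotype in neurosphere H2AK119ub1 and H3K36me2. The same held for the H2AK119ub1 and H3K36me2 interactions, so an uncalled region in these fits says little. Recovery was 44.5 to 65.5% in the other genotype fits and 43% for the H3K27me3 interaction, so changes can be missed there too. The study states no test of its own between genotypes for these islands. Analyses used R (4.3.3) and Python (3.11.15). One gene of the lists is not reported here.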

Additional observations from a re-analysis of the deposited data

Results flagged for a closer look

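Dlk2, a non-canonical ligand related to Delta, had promoter coverage that differed between genotypes in opposite directions in the 2 sources. Its H3K27me3 promoter coverage was 49.5 and 49.5% in the Ctrl and 54.5 and 80% in the cKO libraries of hippocampus, and 100 and 100% in the Ctrl and 79.5 and 59.5% in the cKO libraries of neurospheres. The mean difference of cKO minus Ctrl was 17.75 percentage points in hippocampus and -30.5 in neurospheres, with every library of each source on the same side. The difference of coverage between the sources was not tested. Counts did not show that reversal, with a log2 fold change of cKO over Ctrl of -0.25 in hippocampus (SE 0.40, edgeR adjusted p = 0.994) and -0.55 in neurospheres (SE 0.24, edgeR adjusted p = 0.294), and the interaction in the counts of its region was -0.02 on the log2 scale (SE 0.47, edgeR adjusted p = 0.988).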

How the results depend on the processing

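In counts of regions past the FDR, the choice of test and filter mattered more than scaling. DESeq2 called 3 and 20 regions for H3K27me3 and H3K36me2 in hippocampus, 32, 738 and 83 for H2AK119ub1, H3K27me3 and H3K36me2 in neurospheres, 47 and 10 for the interaction of H3K27me3 and H3K36me2, and 1051 for H3K36me2 between sources, where edgeR called 0 in the first 7 and 501 in the last. With an island required in only 2 of 4 or 4 of 8 libraries and missing ones set to 0, the source comparison gave 0, 4443 and 11817 regions in place of 319, 1008 and 501. The calls of Hes5 and Heyl (H2AK119ub1) and of Dll4 (H3K27me3) between sources were then lost, with adjusted p of 0.183, 0.413 and 0.109. The cause was not tested. Apart from leaving out libraries, 145 of 154 member fold changes under another setting kept their direction and side of the threshold, as did 53 of 66 counts of regions and 39 of 45 counts of promoters within 1.5 times. When a library was left out, 22 of 156 member fold changes turned direction.

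The near-zero fold change of Dll4 for H2AK119ub1 in neurospheres turned to -0.013 with DESeq2 and with its size factors, and to -0.025 with the looser filter. Leaving out libraries gave 0 to 16, 0 to 37 and 0 to 0 regions in hippocampus (H2AK119ub1, H3K27me3, H3K36me2) and 0 to 567, 0 to 2853 and 0 to 2463 in neurospheres, the highest without cKO replicate 2 and cKO replicate 1 in hippocampus (H2AK119ub1, H3K27me3) and without Ctrl replicate 1, cKO replicate 1 and cKO replicate 1 in neurospheres. It gave 0 to 0, 0 to 0 and 0 to 122 for the interaction (122 without neurosphere cKO replicate 1), and 156 to 530, 737 to 1161 and 16 to 1662 between sources, the last pair without neurosphere Ctrl replicate 2 and cKO replicate 2. Member fold changes that turned sign then ranged in hippocampus H3K27me3 from -1.16 to 0.30 (Dll4), in neurosphere H2AK119ub1 from -0.12 to 0.030 (Dll4), -0.095 to 0.43 (Hes5), -0.66 to 0.029 (Hey1) and -0.89 to 0.51 (Heyl), in neurosphere H3K36me2 from -0.68 to 0.17 (Hes1), -1.54 to 0.44 (Hey1) and -1.11 to 0.026 (Heyl), and in the interaction from -0.69 to 0.011 (Hes1), -1.31 to 0.78 (Hes5) and -0.16 to 1.69 (Heyl) for H2AK119ub1, -1.18 to 0.65 (Dll4) for H3K27me3 and -1.19 to 0.086 (Hes1) and -0.91 to 0.44 (Heyl) for H3K36me2. None of these was past the FDR in the report.

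Promoters without overlap numbered 1 for hippocampal H2AK119ub1 at equal covered length (Dll4, lower in cKO), 1 for neurosphere H3K27me3 with a promoter of 1 kb on each side or another start (Jag2), and 0 for neurosphere H3K36me2 with 1 kb. Over gene bodies there were 2 for neurosphere H2AK119ub1 and 3 for H3K27me3 between sources. Leaving out libraries gave 0 to 5 (5 without Ctrl replicate 1), 1 to 4 and 0 to 1 in hippocampus, 2 to 4, 2 to 3 and 1 to 5 in neurospheres, and 0 to 1, 1 to 2 and 1 to 1 between sources.

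The labels tie same-numbered libraries of Ctrl and cKO by a number only, and a shared batch was not tested. With the replicate block 9 hippocampal H3K27me3 regions passed, and it changed no other genotype count. In hippocampus the fitted spread (edgeR common dispersion) went from 0.18 to 0.12 for H2AK119ub1 with the block. It went from 0.13 to 0.095 for H3K27me3 and from 0.144 to 0.138 for H3K36me2. In neurospheres it went from 0.26 to 0.31, 0.12 to 0.13 and 0.17 to 0.13 for the same marks. The deviations of same-numbered libraries correlated at 0.33, 0.27 and 0.02 in hippocampus and -0.32, -0.12 and 0.31 in neurospheres. A crossed block, chosen after seeing the data, gave 5 regions for hippocampal H3K27me3 and 0 in the other 5 comparisons. Coverage was compared by whether groups overlapped, not by a fit, and was not paired. The depth limits every 0%, which says only that no island was called.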

Other observations

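Other promoters followed members closely across the 24 libraries. The measure was the mean absolute difference of covered share, sought for members with islands in at least 6 libraries and leaving out genes within 1 Mb. Dmrt3 was nearest to Dll4, at 2.19 percentage points (Pearson r 0.992), and Cysrt1 to Jag2, at 3.46 points (r 0.977). Inka2 was nearest to Hes5 (5.55 points), Phldb1 to Jag1 (5.84), Tmem119 to Hey2 (7.59), Zfp36l1 to Hes1 (9.97) and Gm45623 to Heyl (13.5). The 24 points share libraries and their breadth, so these are descriptions.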
